A study of Homo sapiens with 6 samples.

Results

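The genes KIF14, MDM4, DEK, BCOR, SYK and NGFR, which are gained, mutated or dysregulated in retinoblastoma besides MYCN, RB1 and E2F3, were followed in Y79 cells after a hairpin against MYCN. They were taken by name from the 17013 genes with values in the deposited count table, and the list itself uses no measured value, although it was drawn up with earlier results of these data known. All 6 were in the table and 5 of them passed the filter on low counts, as did 12819 genes in all. NGFR had too few counts to be tested. Y79 is an established line of human retinoblastoma with amplified MYCN. The comparison held 3 libraries of cells with a control shRNA (labelled MYCN wild-type) and 3 of cells with a MYCN-targeting shRNA (labelled MYCN knockdown), all of the same line and labelled as a single batch. The series text calls the replicates independent and biological. None of the sources used here gives the number or sequences of the hairpins, so all 3 libraries of a group may share a hairpin.

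Retinoblastoma starts with loss of RB1 in most tumours, and further gains and mutations follow. The long arm of chromosome 1, often gained, carries KIF14, which encodes a mitotic kinesin needed to complete cytokinesis, and MDM4, whose product restrains the cell's response to DNA damage. The short arm of chromosome 6, also often gained, carries DEK, which encodes a chromatin protein and histone chaperone. BCOR encodes a corepressor that joins the repressor BCL6 to a variant polycomb complex and is recurrently mutated in these tumours. SYK encodes a cytoplasmic tyrosine kinase of immune receptor signalling that has been reported as raised in retinoblastoma, and NGFR encodes a neurotrophin receptor with a death domain. MYCN is a transcription factor of the MYC family, whose dimers with MAX bind the E-box letters CACGTG.

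The promoters of the 5 members found in the RefSeq table (GRCh38.p14, 250 bases before to 50 after an annotated start, 8 starts in all) held different letters. The matches are descriptions of the sequence, not binding sites. KIF14, DEK and BCOR are shown because KIF14 and DEK share 2 motifs close to the start and BCOR alone holds the E-box. The 250 bases before the start are printed on the strand of the gene, and capitals mark the E-box letters CACGTG, the box CCAAT and the element TTTGAA on either strand (no matches overlap). The KIF14 stretch lies at chr1:200620752-200621001, minus strand, the DEK stretch at chr6:18264531-18264780, minus strand, and the BCOR stretch at chrX:40177278-40177527, minus strand.
KIF14: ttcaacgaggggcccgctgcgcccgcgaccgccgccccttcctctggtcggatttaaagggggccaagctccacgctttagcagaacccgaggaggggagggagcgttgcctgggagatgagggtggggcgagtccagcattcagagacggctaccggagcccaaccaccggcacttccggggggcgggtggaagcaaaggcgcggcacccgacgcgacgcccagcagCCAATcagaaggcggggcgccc
DEK: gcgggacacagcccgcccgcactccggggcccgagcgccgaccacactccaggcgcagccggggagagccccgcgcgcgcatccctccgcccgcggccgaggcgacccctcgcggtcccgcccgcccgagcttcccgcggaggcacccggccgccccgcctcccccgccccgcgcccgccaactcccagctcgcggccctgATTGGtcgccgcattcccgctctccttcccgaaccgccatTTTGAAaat
BCOR: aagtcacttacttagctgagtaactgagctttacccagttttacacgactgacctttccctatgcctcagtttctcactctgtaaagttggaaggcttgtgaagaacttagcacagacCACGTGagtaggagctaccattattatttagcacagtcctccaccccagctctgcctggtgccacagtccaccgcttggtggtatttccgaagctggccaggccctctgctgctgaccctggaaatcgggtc

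CACGTG was found in 1 of the 8 member windows, at the upstream start of BCOR, and in 7.26% of all 35116 promoter windows of the table. CCAAT, a box common in promoters of mitotic genes, lay 22 bases before the start of KIF14 and, on the other strand, 49 bases before that of DEK. It also lay 198 bases before the second start of BCOR, and it was found in 34.6% of all windows. The letters TTTGAA, the core of the cell cycle homology element, lay 9 bases before the start of DEK and, on the other strand, 1 base past the start of KIF14, just outside the printed stretch. They were found in 15.2% of all windows. MDM4 held them at 2 places and no CCAAT, and SYK held them at its most downstream start of 3. An E2F-type sequence (TTTNNCGC, where each N stands for G or C) was found in no member window and in 3.31% of all windows.

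MYCN itself (chromosome 2, 15940564 to 15947007, GRCh38), the target, was lower with its hairpin. It measured 3045.8, 3127.9 and 2875.8 CPM (counts divided by the TMM-scaled library size) in control replicates 1, 2 and 3 and 2413.4, 2283.8 and 2195.2 CPM in the MYCN shRNA replicates. It fell by 0.39 ± 0.043 on the log2 scale (SE, with adjusted p = 8.03e-11 by edgeR's quasi-likelihood test) and remained abundant. Libraries held 15490263 to 16078416 counts. Most genes differed between the groups: 9722 of 12819 tested genes (75.8%) were called at an adjusted p under 0.05, 4865 (38.0%) higher and 4857 (37.9%) lower, and for 76.8% of genes no library of 1 group lay within the range of the other. With library sizes in place of TMM factors 6597 genes were higher and 3348 lower, and the median over all tested genes went from 0.0046 to 0.19 on the log2 scale. Among the 5 tested members 4 were called, 3 higher and 1 lower. The total called is close to the 75.8% of all tested genes, and 5 genes are too few to compare directions. The photoreceptor and retinoblastoma markers were present (10 of 10 at 1 CPM or more in a group, OTX2 highest at 1077.8 CPM in controls, summed level 1799 to 1905 CPM in controls and 1611 to 1667 with the MYCN shRNA). Of these 10 markers 8 rose, from 0.36 (CRX) to 3.64 (GUCA1A) on the log2 scale, and the 2 most abundant in controls, OTX2 and NEUROD1, fell by 0.67 and 0.74. Whether this shift has a part in the values below was not tested.

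**Figure D1:**
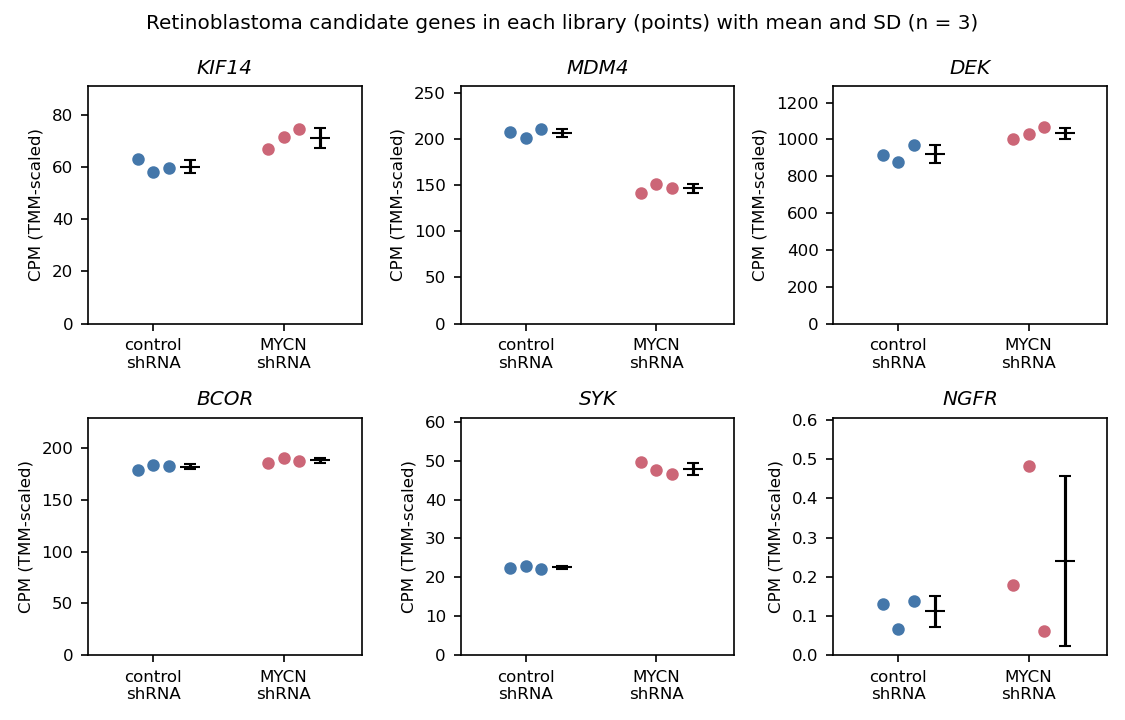
Level of each candidate gene in CPM (vertical axis, from 0, different scale for each gene) in the 3 control shRNA libraries (blue) and the 3 MYCN shRNA libraries (red), with mean and SD beside the points. SYK lies higher and MDM4 lower in all MYCN shRNA libraries, KIF14 and DEK are slightly higher, BCOR is nearly level and NGFR stays below 0.5 CPM.

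SYK changed most among the 5 tested members. SYK (chromosome 9, 90801787 to 90898549, plus strand) measured 22.5, 23.0 and 22.3 CPM in control replicates 1, 2 and 3 and 49.6, 47.5 and 46.6 CPM in the MYCN shRNA replicates. Every MYCN shRNA library stood above every control, and the spread within a group was small (coefficient of variation 1.69% and 3.16%). SYK rose by 1.08 ± 0.061 on the log2 scale (SE, with adjusted p = 1.18e-19 by edgeR's quasi-likelihood test), a 2.12-fold difference with a 95% interval of 1.95 to 2.31. It was the sole tested member called and past 2-fold, as were 14.5% of tested genes, and 8.09% of tested genes had a higher log2 fold change. In bulk RNA, more cells that express SYK and more SYK RNA per cell cannot be told apart.

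Markers of blood cells, in which SYK is a defining kinase, were near the detection limit. Among 9 measured lymphoid and myeloid markers, 2 reached 1 CPM in a group, the lysosomal membrane gene LAPTM5 among them, and the summed level of the list was 9.80 to 11.9 CPM in controls and 9.35 to 10.5 CPM with the MYCN shRNA. PTPRC, which encodes the common leukocyte antigen, measured 0.0693 CPM in controls and 0.0801 CPM with the MYCN shRNA. MS4A1 was at 0 in all control libraries. SYK alone stood above the whole list in every library.

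The receptor subunits that feed SYK in immune cells were likewise at or near 0, as was the downstream kinase gene BTK. The genes of the SYK list that could be tested moved in both directions. FCER1G was at 0 in every library, and TYROBP, CD79A, CD79B and BTK reached at most 0.244 CPM in any library. Of 28 genes fixed as SYK receptors, adaptors and effectors 27 were in the table and 19 tested. Of these 10 rose (52.6%, against 38.0% of all tested genes) and 6 fell (31.6%, against 37.9%). Their median log2 fold change was 0.16, against 0.0046 for all tested genes. STAT3, a transcription factor activated by tyrosine phosphorylation, rose from 35.2 ± 0.38 to 81.3 ± 2.7 CPM (SD, n = 3), and MCL1, which restrains apoptosis and has been described downstream of SYK in retinoblastoma, from 309 ± 8.4 to 381 ± 11 CPM. ZAP70, the paralogue of SYK, rose by 1.72 on the log2 scale from a low level of 0.963 ± 0.026 to 3.19 ± 0.31 CPM. The adaptor gene BLNK fell by 0.87, from 7.08 to 3.86 CPM.

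Both phospholipase genes of the list fell, while VAV2 (0.37 on the log2 scale) and SH3BP2 (0.22) rose and PIK3CD did not pass the test (-0.015; edgeR, adjusted p = 0.857). PLCG2, a phospholipase gene typical of blood cells, dropped from 13.1 ± 1.6 to 3.70 ± 0.57 CPM, which is -1.82 ± 0.129 on the log2 scale (edgeR, adjusted p = 1.66e-16). PLCG1, its ubiquitous paralogue, dropped from 217 ± 5.8 to 153 ± 7.2 CPM. Of the SRC-family kinase genes that can phosphorylate SYK or its receptors, FYN fell by 0.87 and LYN rose by 0.44 on the log2 scale.

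MDM4 was the member that fell. MDM4 (chromosome 1, 204516379 to 204558120, plus strand) measured 208, 201 and 211 CPM in control replicates 1, 2 and 3 and 142, 151 and 147 CPM in the MYCN shRNA replicates. The groups lay far apart compared with their spread. MDM4 fell by 0.49 ± 0.040 on the log2 scale (SE, with adjusted p = 1.09e-14 by edgeR's quasi-likelihood test), to 0.710 of the control level with a 95% interval of 0.671 to 0.751. With library sizes alone the log2 fold change was -0.31. Counts are per gene, so the full-length transcript and the short splice form, which yields little stable protein, were not separated.

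MDM2, which encodes a ubiquitin ligase that binds MDM4 and is its paralogue, went the other way. MDM2 levels were 396, 374 and 399 CPM in control libraries against 785, 806 and 738 CPM in MYCN shRNA libraries, a log2 fold change of 0.99 ± 0.041 (edgeR, adjusted p = 1.97e-24). The ratio of MDM2 to MDM4 counts within a library does not depend on scaling, and it was 1.91, 1.85 and 1.90 in the controls and 5.54, 5.34 and 5.01 with the MYCN shRNA, a 2.81-fold difference. The exact two-sided permutation test over samples gave p = 0.1, the smallest value that 3 against 3 libraries allow. This pair was chosen after its values were seen.

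**Figure D2:**
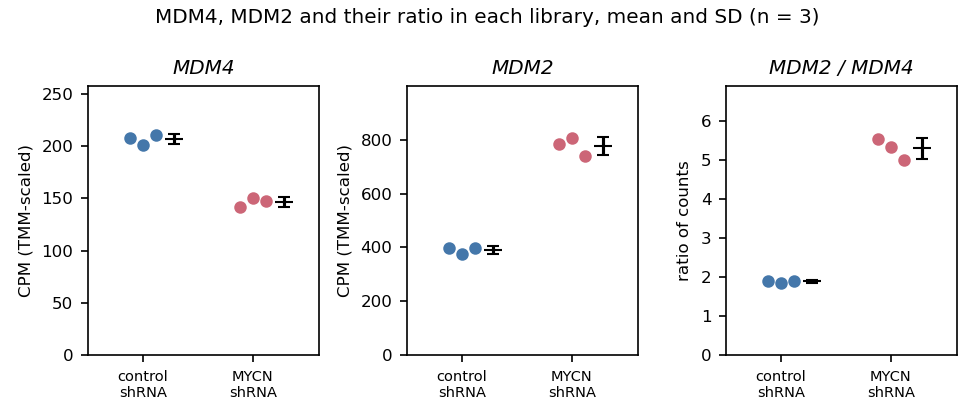
MDM4 and MDM2 in CPM and the ratio of MDM2 to MDM4 counts (vertical axes from 0) in each control shRNA (blue) and MYCN shRNA (red) library, with mean and SD. MDM4 is lower and MDM2 is higher with the MYCN shRNA, and the ratio goes from near 1.9 to above 5 in every library.

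Of 20 genes fixed as control genes around MDM4, all tested, 7 rose (35.0%) and 8 fell (40.0%), close to the 38.0% and 37.9% of all tested genes. Their median log2 fold change was -0.046. HIPK2, a nuclear kinase of the DNA damage response, rose from 94.3 ± 4.4 to 203 ± 8.5 CPM. The ribosomal protein genes RPL5, RPL23 and RPL11, whose free products bind MDM2, fell by 0.76, 0.76 and 0.62 on the log2 scale. These genes have many pseudogenes, so their counts depend on how shared reads were assigned.

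KIF14 rose slightly. KIF14 (chromosome 1, 200551497 to 200620734, minus strand) measured 63.2, 58.0 and 59.6 CPM in control replicates 1, 2 and 3 and 67.2, 71.8 and 74.9 CPM in the MYCN shRNA replicates. The groups did not overlap, although the lowest MYCN shRNA library was near the highest control. The increase was 0.24 ± 0.052 on the log2 scale (SE, with adjusted p = 6.57e-05 by edgeR's quasi-likelihood test), a 1.18-fold difference with a 95% interval of 0.14 to 0.35 on the log2 scale, and 33.5% of tested genes had a higher value. With library sizes alone it was 0.42.

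The genes that act with KIF14 in the central spindle and midbody split between directions, in shares close to those of all tested genes. Of 19 genes fixed as cytokinesis and midzone partners, all tested, 8 rose (42.1%) and 7 fell (36.8%), with a median of -0.073. Of all tested genes 38.0% rose and 37.9% fell. PRC1, the microtubule bundler to which KIF14 binds, rose from 141 ± 5.0 to 256 ± 6.3 CPM, and CIT, the citron kinase that KIF14 helps to place, from 42.6 ± 3.4 to 72.3 ± 5.0 CPM. RACGAP1, a subunit of centralspindlin, rose by 0.50 on the log2 scale. KIF23, the other centralspindlin gene of the list, was not called (0.0040 on the log2 scale; edgeR, adjusted p = 0.934). Of the 4 chromosomal passenger genes 3 fell, and CDCA8, at -0.099 on the log2 scale, was not called (edgeR, adjusted p = 0.0726). INCENP fell by 0.38 on the log2 scale, BIRC5, which encodes survivin, from 110 ± 3.3 to 33.9 ± 0.93 CPM, and AURKB, which encodes the kinase of the complex, from 91.7 ± 4.1 to 42.9 ± 3.3 CPM. BIRC5 thus fell by 1.69 on the log2 scale and AURKB to 0.468 of its control level, while the quartiles of all tested genes lay at -0.37 and 0.40 on the log2 scale.

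DEK, by far the most abundant member, rose least among the called. DEK (chromosome 6, 18223868 to 18264823, minus strand) measured 917, 875 and 971 CPM in control replicates 1, 2 and 3 and 1002.6, 1028.6 and 1065.1 CPM in the MYCN shRNA replicates. The groups did not overlap, but control replicate 3 came close to MYCN shRNA replicate 1. The increase was 0.16 ± 0.041 on the log2 scale (SE, with adjusted p = 4.56e-04 by edgeR's quasi-likelihood test), a 1.12-fold difference with a 95% interval of 1.06 to 1.19. With library sizes alone it was 0.35.

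Histone chaperones and other partners of DEK changed in both directions. Of 25 genes on that list, all tested, 15 fell (60.0%, against 37.9% of all tested genes) and 5 rose (20.0%, against 38.0%), the median being -0.21 on the log2 scale, and with library sizes alone 12 fell and 10 rose. NPM1, a nucleolar histone chaperone, fell from 2363.2 ± 46 to 1312.8 ± 31 CPM, and ANP32E, which removes a histone variant from chromatin, from 454 ± 28 to 264 ± 10.3 CPM. SET, a chaperone described with DEK in leukaemia, fell by 0.46 on the log2 scale. CHAF1B, a subunit of the replication-coupled chaperone CAF-1, rose from 118 ± 4.3 to 164 ± 2.3 CPM, and SUPT16H, of the FACT complex, by 0.22 on the log2 scale. CHAF1A, another subunit of CAF-1, fell from 117 ± 1.8 to 88.0 ± 1.9 CPM, so the CAF-1 genes did not share a direction.

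BCOR did not pass the test. BCOR (chromosome X, 40049815 to 40177329, minus strand) measured 179, 184 and 183 CPM in control replicates 1, 2 and 3 and 186, 191 and 188 CPM in the MYCN shRNA replicates. Levels did not overlap between the groups but differed by little: the log2 fold change was 0.049 ± 0.039 (SE, with adjusted p = 0.246 by edgeR's quasi-likelihood test), a ratio of 1.03 with a 95% interval of 0.980 to 1.09. The call depended on scaling, since BCOR passed at 0.087 with upper quartile factors (adjusted p = 0.0331) and at 0.23 with library sizes alone (adjusted p = 8.24e-07). Relative to the median of all tested genes the difference was 0.045 under each of these scalings. GENCODE 29 lists a BCOR pseudogene, BCORP1, so part of the reads could be shared.

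Genes of the BCOR complex changed by small amounts. BCL6, the repressor that recruits BCOR, was at 0 in every library. Of the other 15 genes fixed as BCOR partners, all tested, 4 rose (26.7%, against 38.0% of all tested genes) and 6 fell (40.0%, against 37.9%). Their log2 fold changes ranged from -0.38 to 0.48. With library sizes alone 9 rose and 2 fell. PCGF1, the subunit that contacts BCOR, measured 13.6 ± 0.41 and 13.7 ± 0.95 CPM and did not pass the test (edgeR, adjusted p = 0.886). KDM2B, which brings the complex to CpG islands, had a log2 fold change of -0.13, which turned to 0.048 (adjusted p = 0.338) with library sizes alone, and the paralogue BCORL1 had -0.25 (adjusted p = 5.46e-05; adjusted p = 0.232 with library sizes alone). RYBP rose from 114 ± 9.8 to 159 ± 2.4 CPM and the deacetylase gene HDAC1 from 189 ± 4.5 to 256 ± 5.0 CPM. YAF2, the paralogue of RYBP, fell from 41.6 ± 4.1 to 32.0 ± 0.68 CPM and the deubiquitinase gene USP7 from 216 ± 9.8 to 176 ± 3.9 CPM.

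NGFR was at the limit of detection. NGFR (chromosome 17, 49495293 to 49515017, plus strand) had 2, 1 and 2 counts in control replicates 1, 2 and 3 and 3, 8 and 1 counts in the MYCN shRNA replicates. The groups overlapped, and 8 of the 12 MYCN shRNA counts came from a single library. The ratio of summed counts was 2.15 with a 95% exact counting interval of 0.706 to 7.80, which covers counting error only, and without MYCN shRNA replicate 2 its log2 value dropped from 1.11 to 0.11. A difference was not detectable at this depth. Exons of NGFR share 924 and 202 bases with a pair of genes on the opposite strand in GENCODE 29, and no source used here says whether counting used strand. Markers of Schwann and neural crest cells, which express NGFR strongly, were also low, with 0 of 5 at 1 CPM in a group and a summed level of 1.59 to 1.71 CPM in controls and 1.25 to 2.05 CPM with the MYCN shRNA.

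Some other neurotrophin genes could be tested. Of 22 genes fixed as NGFR ligands, co-receptors and effectors 21 were in the table and 15 tested, with a median of 0.036. Of these 6 rose (40.0%) and 5 fell (33.3%), close to the 38.0% and 37.9% of all tested genes. With library sizes alone 2 were lower. SORT1, the co-receptor of NGFR for pro-neurotrophins, rose from 120 ± 0.27 to 269 ± 5.0 CPM, and the signalling kinase gene IRAK1 from 125 ± 1.5 to 162 ± 3.2 CPM. NTF3, another ligand gene, rose from 0.159 ± 0.18 to 1.11 ± 0.26 CPM (log2 fold change 2.76, and 3.91 without control replicate 3), and RTN4R, which forms a receptor with NGFR for myelin inhibitors, fell from 21.7 ± 0.87 to 16.9 ± 0.36 CPM. NTRK2 was at 0 in every library.

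**Figure D3:**
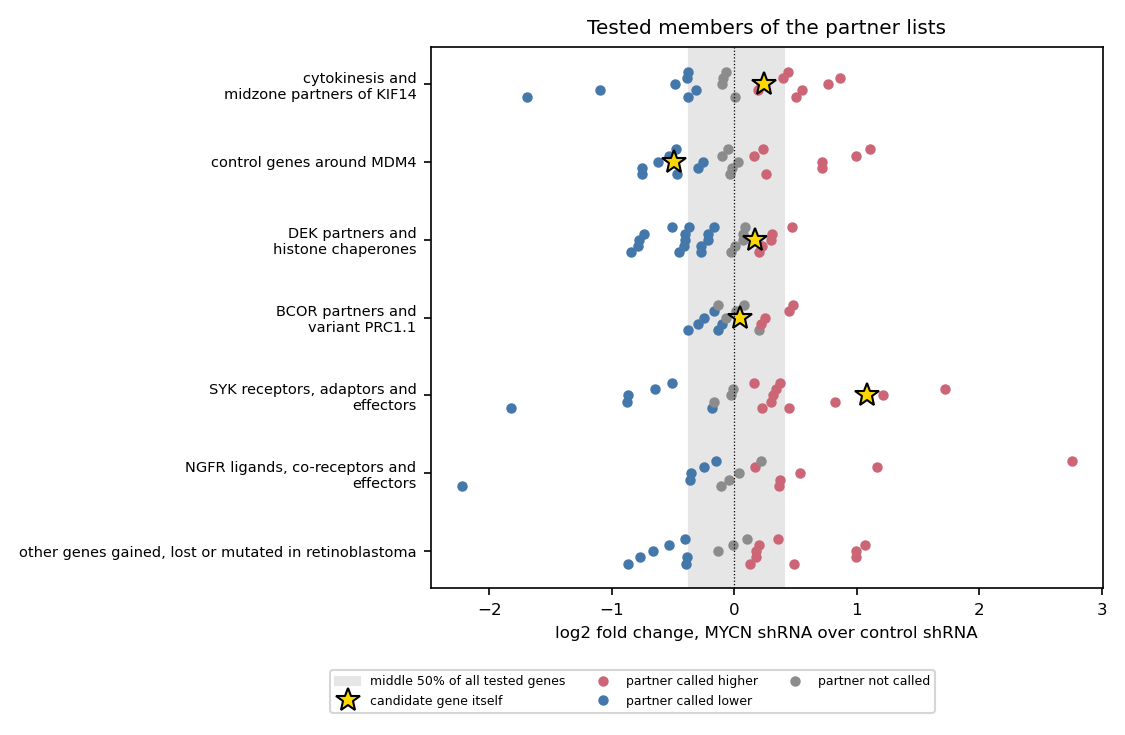
Log2 fold change (horizontal axis, MYCN shRNA over control shRNA) of every tested gene of the 7 lists, red where called higher, blue where called lower and grey where not called. A star marks the candidate gene in the lists of KIF14, MDM4, DEK, BCOR and SYK. The list of NGFR, which was not tested, and that of other retinoblastoma genes have no star. Each list spreads over both directions, and the shaded band from -0.37 to 0.40 lies between the quartiles of all tested genes.

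Divided by the length of a protein-coding transcript (GENCODE 29), the levels of the members can be set side by side. In controls the order was DEK (269 ± 14 CPM per kb, SD, n = 3), BCOR (28.5 ± 0.37), MDM4 (20.5 ± 0.46), KIF14 (8.28 ± 0.36), SYK (4.51 ± 0.076) and NGFR (0.0328 ± 0.012), and no neighbours in this order overlapped between libraries. With the MYCN shRNA the order was the same, from DEK (301 ± 9.2 CPM per kb) to NGFR (0.0704 ± 0.064). KIF14 (9.24 to 10.3 CPM per kb) and SYK (9.31 to 9.90) then overlapped. A gene with transcripts of several lengths can be misplaced by this measure.

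The remaining tested values of the comparison put the members among other genes of the disease. Of 24 other genes gained, lost or mutated in retinoblastoma, all in the table, 19 were tested (median 0.10). Of these 9 rose (47.4%, against 38.0% of all tested genes) and 7 fell (36.8%, against 37.9%). NEK7, a mitotic kinase gene in the gained region of chromosome 1, rose from 49.7 ± 2.0 to 104 ± 4.0 CPM, while UCHL5, a proteasome-bound deubiquitinase gene on the same arm, fell from 145 ± 5.3 to 79.6 ± 0.89 CPM. OTX2, a photoreceptor lineage factor, fell from 1077.8 ± 26 to 680 ± 9.4 CPM. RB1 transcripts were present and rose by 0.48 on the log2 scale, from 96.1 ± 6.9 to 134 ± 3.5 CPM. Counts per gene do not show whether these transcripts were intact. E2F3, the other candidate of the chromosome 6 gain, rose by 0.17 on the log2 scale, close to the 0.16 of DEK.

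Genes beside the members on their chromosomes did not share a direction. Among the 10 nearest tested protein-coding genes (5 on each side) 6 rose and 2 fell around KIF14, 5 rose and 3 fell around MDM4, 7 rose and 2 fell around DEK, 6 rose and 4 fell around BCOR, 4 rose and 5 fell around SYK, and 5 rose and 3 fell around NGFR. Together 55.0% of the 60 distinct neighbours rose and 31.7% fell, against 38.0% and 37.9% of all tested genes, and this difference was not tested. Around KIF14 log2 fold changes ranged from -1.07 for the kinesin gene KIF21B to 1.72 for LHX9, and around DEK from -0.57 for the demethylase gene KDM1B to 3.46 for RNF144B, which measured 0.472 CPM in controls and 5.27 CPM with the MYCN shRNA (4.08 without control replicate 2). Around MDM4 the lowest was TMEM81 at -0.46 (adjusted p = 0.0941 with library sizes alone) and the highest CNTN2 at 1.82, from 0.311 CPM in controls (2.42 without control replicate 1). DYNLT3 (1.09) and MID1IP1 (-0.66) bounded the neighbours of BCOR, DIRAS2 (2.04) and the isoleucyl-tRNA synthetase gene IARS1 (-0.86) those of SYK, and NXPH3 (1.92, and 2.53 without control replicate 2) and SPOP (-0.49) those of NGFR.

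**Figure D4:**
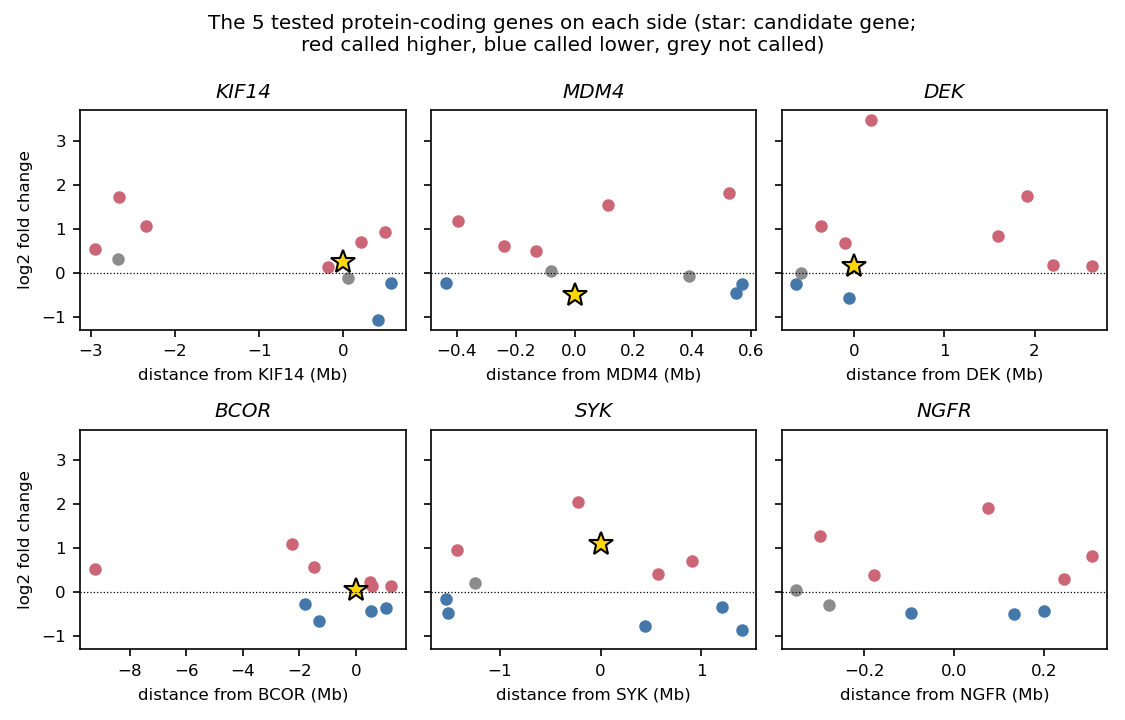
Log2 fold change (vertical axis, MYCN shRNA over control shRNA) of the 5 tested protein-coding genes on each side of each member against distance in Mb between gene midpoints, with the member as a star (NGFR was not tested). Called genes lie above and below 0 around each member.

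Profiles over the 6 libraries were compared by the Euclidean distance between log2(CPM + 0.5) values centred on each gene. The 3 nearest profiles were C3orf18, ORC4 and TSPAN9 for KIF14 (distances 0.0327 to 0.0679), DHX35, MINDY2 and FBXL2 for MDM4 (0.0221 to 0.0454), and ZNF43, TMEM123 and RCN2 for DEK (0.0347 to 0.0429). They were HIBCH, CSRNP2 and SRSF2 for BCOR (0.0238 to 0.0350) and ZEB2, FPGT and TRIM26 for SYK (0.0622 to 0.0709). ZEB2, a zinc finger repressor gene, measured a mean of 6.96 CPM in controls and 15.4 CPM with the MYCN shRNA. C3orf18 was called at an adjusted p of 0.0274 (edgeR), which DESeq2 did not call (adjusted p = 0.0965) and which 4 of the 6 left-out libraries ended, with adjusted p-values of 0.0547 without MYCN shRNA replicate 2, 0.0555 without control replicate 3, 0.0887 without control replicate 2 and 0.106 without MYCN shRNA replicate 3.

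AGCACAA and GTGGATC are 7-base sequences of the MYCN coding region that earlier work chose with these fold changes in view. Their presence is therefore a description and tests nothing about the members. Of the 6 members SYK alone carried either. The match is printed with 8 bases on each side and the motif in capitals, beside the same letters in MYCN. The SYK site lies in the 3' untranslated region (UTR), in exon 14 of 14, plus strand, at base 1200 of a UTR of 2949 bases.
SYK, chr9:90896792-90896814: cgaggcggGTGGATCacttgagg
MYCN, chr2:15942615-15942637: ccgagtgcGTGGATCccgccgtg

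GTGGATC occurred in the 3' UTR of 9.13% of the 12730 tested genes that had an annotated transcript, and either sequence occurred anywhere in the transcript of 38.8% of them.

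**Figure D5:**
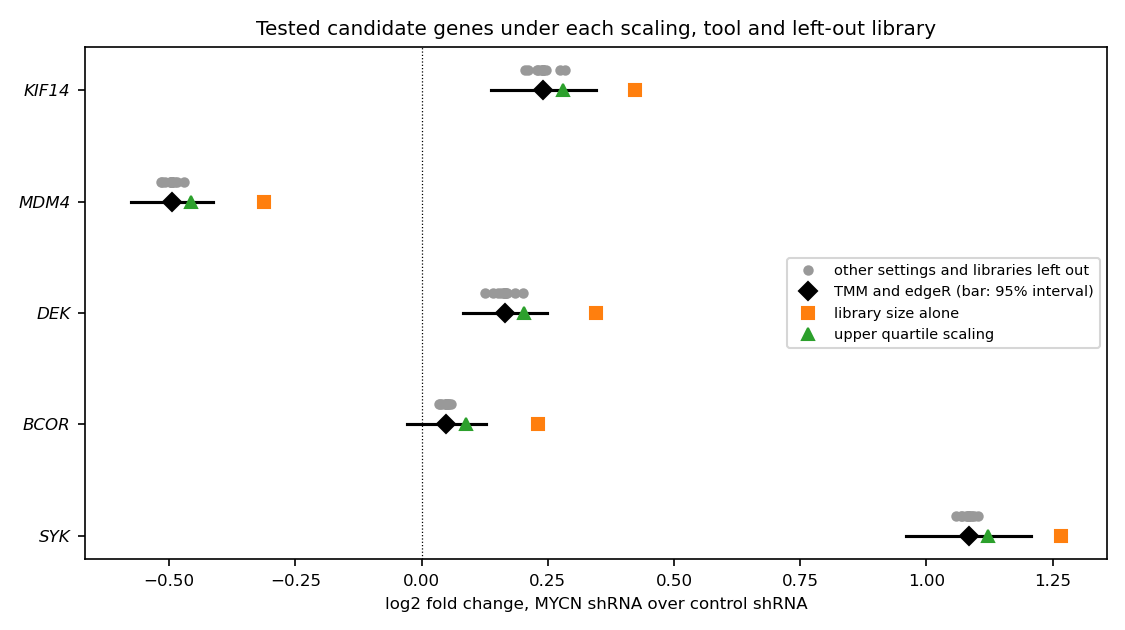
Log2 fold change (horizontal axis) of the 5 tested members with TMM factors and edgeR (black, bar for the 95% interval), with library sizes alone (orange), with upper quartile factors (green) and under all other settings and left-out libraries (grey). SYK, KIF14 and DEK stay above 0 and MDM4 below 0 under each, and library sizes alone move all 5 upward by a like amount.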

How the data were processed

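Poly(A) RNA of Y79 cells with a control shRNA (3 libraries) or a MYCN-targeting shRNA (3 libraries) was extracted with TRIzol and sequenced as read pairs, per the labels' protocols. The deposited values are estimated counts per gene symbol, unscaled in the authors' table; 12.5% to 12.8% are not whole. Per the submitters' processing notes the build is GRCh38. No source used here names the aligner, counter, annotation or strand setting. Rows without values (22) were dropped. Depth was 15490263 to 16078416 counts per library, and no replicates matched within sampling noise (chi-square per degree of freedom 1.73 to 4.23).

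Counts were rounded, filtered with filterByExpr (minimum 10 counts; tested genes held 99.95% of counts) and tested by the quasi-likelihood method (edgeR 4.0.16, R 4.3.3) using TMM factors, robust dispersions and Benjamini-Hochberg adjustment over 12819 genes. Alternatives were DESeq2 1.42.0, limma-voom (limma 3.58.1), 3 other scalings, 2 other filters, a replicate block and each library left out. Intervals of counts are exact and cover counting error only. Positions and transcripts came from GENCODE 29 (16814 symbols matched) and promoters from RefSeq, which held no window for NGFR.

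The members, lists and tests were chosen with earlier results of these data known. Named genes are the members, MYCN, the 2 list genes with the smallest p in each direction, the highest and lowest neighbour and the 3 nearest profiles of each member. RPL11, RACGAP1, KIF23, SET, CHAF1A, ZAP70, BLNK, FYN, LYN, PCGF1, KDM2B, BCORL1, NTF3, RB1, E2F3, CDCA8, INCENP, VAV2, SH3BP2, PIK3CD, CRX, GUCA1A, NEUROD1 and genes at or near 0 were named after their values were seen. Results of some genes that this rule or these lists hold are not reported here.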

Additional observations from a re-analysis of the deposited data

How the results depend on the processing

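The calls of SYK, MDM4, KIF14 and DEK held under all 14 alternatives, with log2 fold changes of 1.06 to 1.27, -0.52 to -0.31, 0.20 to 0.42 and 0.13 to 0.35. The highest adjusted p-values (edgeR) were 0.00978 for DEK, without control replicate 2, and 0.00231 for KIF14, without MYCN shRNA replicate 3. BCOR was called at 0.087 with upper quartile factors and at 0.23 with library sizes alone, which shift all genes by construction, and ranged from 0.035 to 0.059 with libraries left out. The log2 ratio of NGFR ranged from 0.11 to 1.56 with libraries left out, and without a filter on low counts NGFR was not called (edgeR, adjusted p = 0.274). PCGF1 turned to -0.0018 without control replicate 2 and to -0.042 without MYCN shRNA replicate 2 (highest 0.050, without MYCN shRNA replicate 1), and KDM2B to 0.048 with library sizes alone. KDM2B missed the threshold with upper quartile factors (adjusted p = 0.0523) and without MYCN shRNA replicate 3 (0.0594). The ratio of MDM2 to MDM4 kept a log2 change of 1.46 to 1.53 with libraries left out, an alternative chosen after seeing the data. Counts of genes called stayed within 4443 to 6597 higher and 3348 to 5059 lower.

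Replicate numbers are shared between the groups, but same-numbered libraries deviated together only weakly (correlations of 0.131, 0.115 and 0.0592 over 12819 genes), below 0.1 for the third, so the samples were treated as sharing a number alone. Each library correlated best with its own number, which is a hint from the data. With a replicate block 4967 genes were higher and 4939 lower, and the log2 fold changes of SYK, MDM4, KIF14, DEK and BCOR were 1.08, -0.49, 0.24, 0.17 and 0.049, with no change of call. Depth limits what can be said of NGFR and of its untested partners.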
